A study of Mus musculus with 9 samples.

Results

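The 44 interferon-stimulated genes described here were taken by symbol from a deposited table of 55253 genes of mouse liver, and all 44 were found in it. Liver RNA came from 9 male C57Bl/6J mice that carried no engineered allele according to the labels. The WD+alcohol group of 5 mice received a Western diet (WD), which is used to induce fatty liver in rodents, with 10% alcohol in sweetened water, starting when 10 weeks old and lasting 23 weeks. The control group of 4 mice received chow and tap water over the same time. Diet, sugar and alcohol were given together, so their separate effects cannot be told apart in this model. Libraries read the 3′ ends of transcripts, and levels are given in CPM, read counts scaled to library size with the authors' TMM correction for composition.

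Interferons are cytokines, and those of type I are made when cells sense viral or bacterial nucleic acids, among other signals. The targets of interferons are grouped by the signal that drives them best. Type I interferons act through Ifnar1 and Ifnar2, and a complex that contains Stat2 and Irf9 then binds the interferon-stimulated response element (ISRE) in promoters of antiviral genes. Interferon gamma acts through Ifngr1 and Ifngr2 and, by way of the gamma-activated site (GAS) in promoters, induces guanylate-binding proteins, immunity-related GTPases and the antigen-processing machinery. Many genes answer both signals, so the grouping used here is one of emphasis. In liver, Kupffer cells, endothelium and hepatocytes can all express these genes.

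The 44 genes comprised 4 JAK-STAT factors and feedback genes, 3 genes of RNA sensing, 25 type I antiviral targets, 7 gamma-type GTPases, 3 genes of antigen processing and 2 ligands of the chemokine receptor Cxcr3. Libraries held 3635860 to 6643645 reads in genes, so that 1 read was worth 0.152 to 0.270 CPM, and a gene with 0 reads in a library could still have stood at up to 0.455 to 0.809 CPM by counting error (3 reads). The hepatocyte genes checked (Alb, Apoa1, Ttr, Cyp2e1, Serpina1c, Tat and Ass1) summed to 26380 CPM or more in every library. WD+alcohol 1 had the fewest reads. In annotation of another build than the authors' (GENCODE M21), 14 of the 44 genes shared exon bases with another gene. Reads in such stretches cannot be assigned with certainty. Psmb9 and Tap1 overlap on opposite strands. On the same strand, Igtp overlaps Irgm2, Ifi47 overlaps Olfr56, and Irf9, Rtp4, Parp14 and Gbp7 each overlap another gene. Near-identical copies mattered for Oas1a and Oas1g, where 56.1% and 30.2% of the 50-base words in the last 500 bases of the transcript also occurred in the other gene, and for Ifit3, where 14.9% occurred in Ifit3b.

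RefSeq promoters of mouse build GRCm38.p6, from 250 bases before to 50 after the start, were matched by symbol for 32 of the 44 genes. The ISRE core was searched as TTTC, any 2 bases and TTTC, and the GAS as TTCNNNGAA, both on either strand and with overlapping matches allowed. The ISRE core was found in 17 of these 32 genes and in 3.44% of all 32851 promoters of the table. The GAS pattern was found in 7 of 32 genes and in 8.3% of all promoters. By list, the ISRE core was present in 9 of 16 type I antiviral targets, 5 of 6 gamma-type GTPases and 0 of 3 antigen-processing genes. A match is a description of the sequence and no measure of binding. The 160 bases before the start are printed 5′ to 3′ for 4 type I targets, 3 gamma-type GTPases and Tap1, to show which of the genes compared here carry the elements. Capitals mark matches to either pattern, and matches that overlap run together.
Ifit3 (chr19:34583369-34583528, plus strand): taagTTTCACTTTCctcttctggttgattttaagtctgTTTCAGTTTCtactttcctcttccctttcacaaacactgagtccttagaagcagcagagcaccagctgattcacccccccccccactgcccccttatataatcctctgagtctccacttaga
Isg15 (chr4:156200819-156200978, minus strand): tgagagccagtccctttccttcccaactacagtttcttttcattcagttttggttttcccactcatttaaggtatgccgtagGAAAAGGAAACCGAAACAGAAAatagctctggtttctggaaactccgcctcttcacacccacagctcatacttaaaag
Bst2 (chr8:71537473-71537632, minus strand): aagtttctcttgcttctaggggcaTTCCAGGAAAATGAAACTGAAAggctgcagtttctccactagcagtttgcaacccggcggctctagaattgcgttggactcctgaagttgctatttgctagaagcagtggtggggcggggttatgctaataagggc
Oasl2 (chr5:114896774-114896933, plus strand): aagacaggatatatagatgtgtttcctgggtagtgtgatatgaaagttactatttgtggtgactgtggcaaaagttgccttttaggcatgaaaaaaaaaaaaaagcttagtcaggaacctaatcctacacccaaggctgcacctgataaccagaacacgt
Gbp2 (chr3:142620503-142620662, plus strand): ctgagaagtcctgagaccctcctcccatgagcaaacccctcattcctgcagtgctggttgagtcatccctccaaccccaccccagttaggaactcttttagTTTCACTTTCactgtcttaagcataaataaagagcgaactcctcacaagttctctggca
Irgm1 (chr11:48871421-48871580, minus strand): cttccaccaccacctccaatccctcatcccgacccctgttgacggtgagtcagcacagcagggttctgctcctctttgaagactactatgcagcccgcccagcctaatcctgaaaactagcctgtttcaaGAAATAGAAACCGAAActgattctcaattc
Igtp (chr11:58199396-58199555, plus strand): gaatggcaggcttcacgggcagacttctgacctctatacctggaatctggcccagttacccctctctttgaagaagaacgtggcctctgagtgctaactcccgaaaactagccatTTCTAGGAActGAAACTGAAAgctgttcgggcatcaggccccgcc
Tap1 (chr17:34187396-34187555, plus strand): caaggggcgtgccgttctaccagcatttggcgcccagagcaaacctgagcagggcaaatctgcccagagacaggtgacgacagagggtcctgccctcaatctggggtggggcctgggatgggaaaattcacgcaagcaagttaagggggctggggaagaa
Ifit3 carried 2 separate ISRE cores, Isg15 a run of 3 overlapping ones, Irgm1 a run of 2, and Gbp2 a single one. In Bst2 a GAS pattern overlapped the first of a run of 2 ISRE cores, and in Igtp a GAS pattern lay just before 1. Neither pattern was found in the windows of Oasl2 and Tap1. Psmb9 and Tap1 lie head to head, and their promoters in the table overlap. Of the 5 genes that rose with WD+alcohol and had a promoter in the table, 2 held the ISRE core (Ifit3 and Bst2), against 13 of the 25 that were tested and did not pass.

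With WD+alcohol, 6 of the 42 genes that could be tested rose and 0 fell at an adjusted p under 0.05, against 1.61% of all 14759 tested genes that rose and 0.678% that fell. These were Ifi27l2b, Lgals3bp, Ifi44, Ifit3, Oasl2 and Bst2, all of them type I antiviral targets. The log2 fold change was positive for 39 of the 42 genes, with a median of 0.44, whereas 49.9% of all tested genes were positive with a median of -0.000766. Every WD+alcohol mouse lay above every control for 8 genes (the called ones without Ifi44, and Oas2, Ifi27 and Gbp2), against 3.34% of all tested genes. In whole-liver RNA, more cells of a type and more RNA per cell cannot be told apart.

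Testing used limma-trend on log2(CPM + 1), a scale that understates changes of low genes, on genes that averaged 1 CPM or more over the 9 libraries. Oas1a and Oas1g were below that level, and 4 of the tested genes (Ifit3b, Oas2, Oas3 and Xaf1) averaged under 1 CPM in controls, so the 42 are not the whole set. With no filter, 41 of the 44 genes were positive and 3 were called (Ifi27l2b, Ifi44 and Lgals3bp; 0.719% of all genes). The number called was 2 without control 3 (1.18% of all genes). It was 3 without WD+alcohol 3 (1.35%), without WD+alcohol 5 (0.942%) or without control 1 (1%). DESeq2 on the recovered reads called 11 (2.51% of all genes) and edgeR 7 (1.5%). No gene fell at an unadjusted p under 0.05, or with edgeR or DESeq2.

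**Figure D1:**
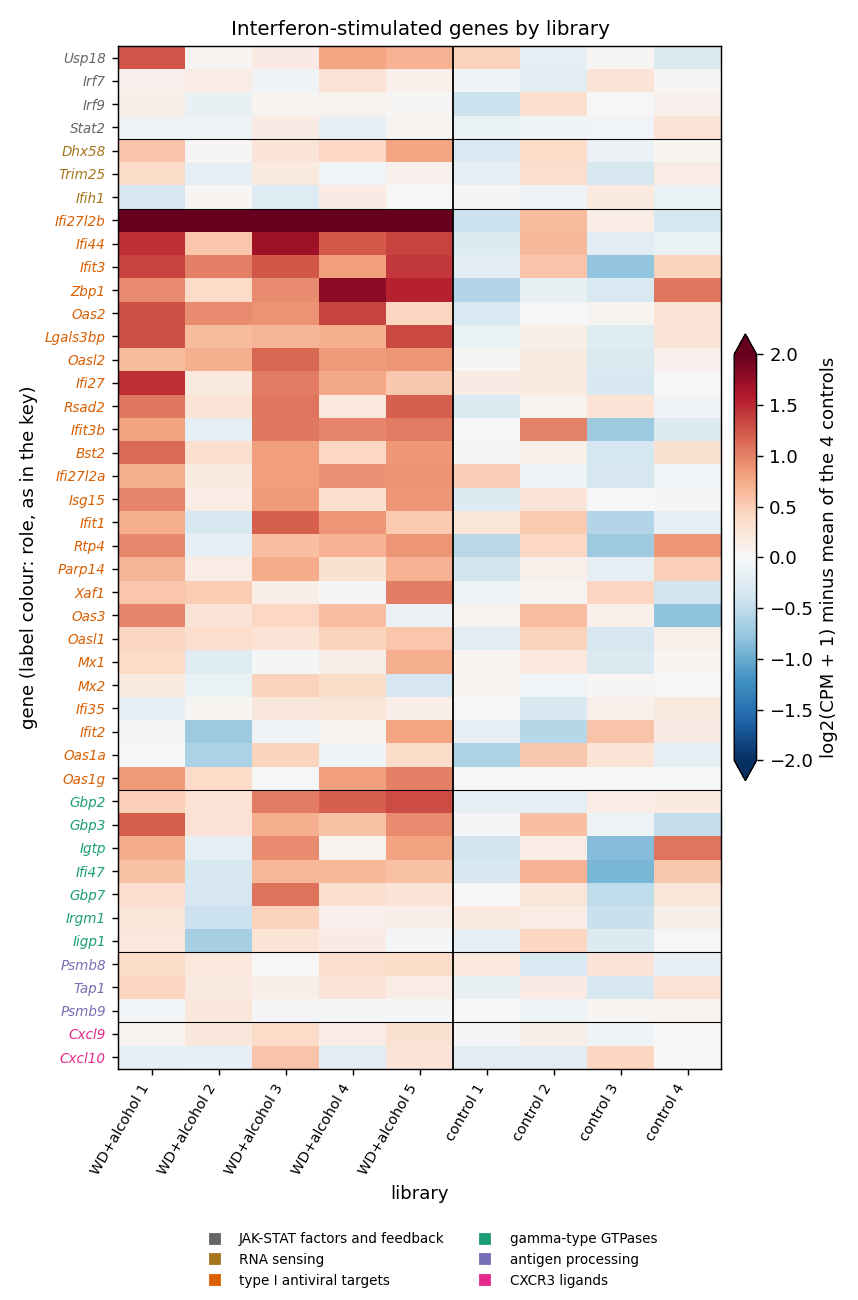
Each cell is 1 gene (rows, grouped by role) in 1 library (columns), coloured by log2(CPM + 1) minus the mean of the 4 controls; colours stop at 2 in either direction. Red is concentrated in the type I antiviral rows of the 5 WD+alcohol libraries, palest in WD+alcohol 2, and Ifi27l2b is beyond the scale in all 5 of them.

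Ifi27l2b, a small hydrophobic protein of the Isg12 family, had the largest change among the 42 genes. Its level was 25.9, 14.2, 16.1, 11.1 and 19.8 CPM in WD+alcohol mice 1 to 5 and 0.494, 2.10, 1.22 and 0.568 CPM in controls 1 to 4. The lowest WD+alcohol mouse was thus well above the highest control. Means were 17.4 ± 5.69 CPM (SD, n = 5) and 1.10 ± 0.745 CPM (SD, n = 4), and the log2 fold change was 3.15 ± 0.26 (SE; adjusted p = 4.79e-05, limma-trend). In reads this was 447 over the 5 WD+alcohol libraries and 23 over the 4 controls. The call held in 20 of 20 alternative settings (adjusted p at most 0.000267).

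The 2 relatives of Ifi27l2b on the list moved less. Ifi27l2a stood at 12.7, 8.40, 13.9, 14.7 and 14.4 CPM with WD+alcohol and at 10.7, 6.72, 5.56 and 7.01 CPM in controls, so that 1 WD+alcohol mouse lay below control 1. Its log2 fold change was 0.71 ± 0.20 (SE) and it was not called (adjusted p = 0.0844), although it was with DESeq2 (0.0443) and without WD+alcohol 2 or control 1. Ifi27 stood at 129, 53.5, 94.97, 79.5 and 68.1 CPM against 52.2, 52.5, 36.8 and 46.0 CPM. The groups did not overlap, but the lowest WD+alcohol mouse was within about 1 CPM of the highest control (log2 fold change 0.79 ± 0.20, SE; adjusted p = 0.0598). Ifi27 was called with DESeq2 (0.00485), without WD+alcohol 2, with array weights and with all libraries rescaled to one total.

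Lgals3bp, a secreted glycoprotein that binds galectins, stood at 108, 67.7, 70.0, 71.8 and 109 CPM with WD+alcohol and at 39.4, 46.9, 36.5 and 52.3 CPM in controls. All WD+alcohol mice were higher than all controls, and mice 1 and 5 stood apart from the other 3. The log2 fold change was 0.93 ± 0.16 (SE; adjusted p = 0.00699), and the call held in 20 of 20 alternative settings. With the replicate number as a block, which is counted apart, Lgals3bp was not called. The same mice 1 and 5 had the highest summed level of 10 Kupffer cell markers (601 and 667 CPM, against 370 to 464 CPM in the other 3 and 91.9 to 195 CPM in controls). The part of macrophage number in the Lgals3bp result was not tested.

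Ifi44, an interferon-induced cytoplasmic protein, stood at 8.89, 4.28, 10.7, 7.42 and 8.21 CPM against 1.98, 4.62, 2.09 and 2.27 CPM. Here the groups overlapped, because WD+alcohol 2 was below control 2. The log2 fold change was 1.26 ± 0.25 (SE; adjusted p = 0.0181). Leaving out WD+alcohol 5, control 1, control 3 or control 4 ended the call (adjusted p 0.0513 to 0.0614).

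Ifit3, a tetratricopeptide-repeat protein that works with Ifit1 against foreign RNA, stood at 11.9, 9.17, 10.9, 8.03 and 12.4 CPM against 3.30, 6.51, 1.91 and 5.87 CPM. All WD+alcohol mice were above all controls, and the controls were the more spread group. The log2 fold change was 1.17 ± 0.25 (SE; adjusted p = 0.0277), and the call was lost on leaving out WD+alcohol 1, 3 or 5 or control 1 or 3, and with no filter (0.0537 to 0.0877). Its near copy Ifit3b was low, with 50 reads over the WD+alcohol libraries and 17 over the controls (adjusted p = 0.437). Ifit1 averaged 10.2 ± 3.84 CPM against 6.26 ± 2.37 CPM with overlapping groups (adjusted p = 0.431). Ifit2 had a log2 fold change of 0.00 (95% interval -0.68 to 0.68) on log2(CPM + 1), from 41 reads with WD+alcohol and 34 in controls. Differences of either sign within that interval were not excluded, and the scale understates changes of low genes.

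The oligoadenylate synthetase family makes the second messenger that activates RNase L, and the Oasl genes encode relatives that carry ubiquitin-like domains. Oasl2 stood at 3.50, 3.82, 5.44, 4.24 and 4.40 CPM against 1.98, 2.31, 1.39 and 2.08 CPM, without overlap. Its log2 fold change was 0.84 ± 0.19 (SE; adjusted p = 0.0302), from 13 to 29 reads in a WD+alcohol library and 8 to 12 in a control. That call ended without WD+alcohol 3, 4 or 5, without control 1, 3 or 4, and with no filter (0.0549 to 0.101).

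Oas2 did not overlap either, at 2.96, 2.14, 2.06, 3.18 and 1.20 CPM against 0.330, 0.630, 0.695 and 0.947 CPM, and missed the threshold (log2 fold change 0.98 ± 0.24, SE; adjusted p = 0.0548; 0.0228 with DESeq2, 0.0465 with edgeR and 0.0368 without WD+alcohol 5). It rested on 63 reads with WD+alcohol and 14 in controls. Oasl1 averaged 7.75 ± 0.640 CPM against 5.71 ± 1.72 CPM and Oas3 1.42 ± 0.685 CPM against 0.843 ± 0.686 CPM, both with overlap and neither called (adjusted p = 0.346 and 0.661). Oas1g had 3, 2, 0, 5 and 5 reads in the WD+alcohol libraries and 0 in each of the 4 controls, and Oas1a 16 reads against 13 in all. These counts are too low for a comparison, and the pair shares 3′ sequence.

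Bst2, the membrane protein tetherin that holds budding virus on the cell, stood at 41.0, 23.4, 33.4, 24.5 and 34.0 CPM against 17.6, 19.5, 14.1 and 22.7 CPM. The groups did not overlap, but the lowest WD+alcohol mouse was within 1 CPM of the highest control. With a log2 fold change of 0.72 ± 0.17 (SE; adjusted p = 0.0468) it was the least firm of the 6 calls, and it held in 9 of 20 alternative settings. The call ended on leaving out WD+alcohol 1, 3 or 5 or control 1, 2 or 3, and with edgeR (adjusted p 0.0520 to 0.130 over all settings that ended it).

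**Figure D2:**
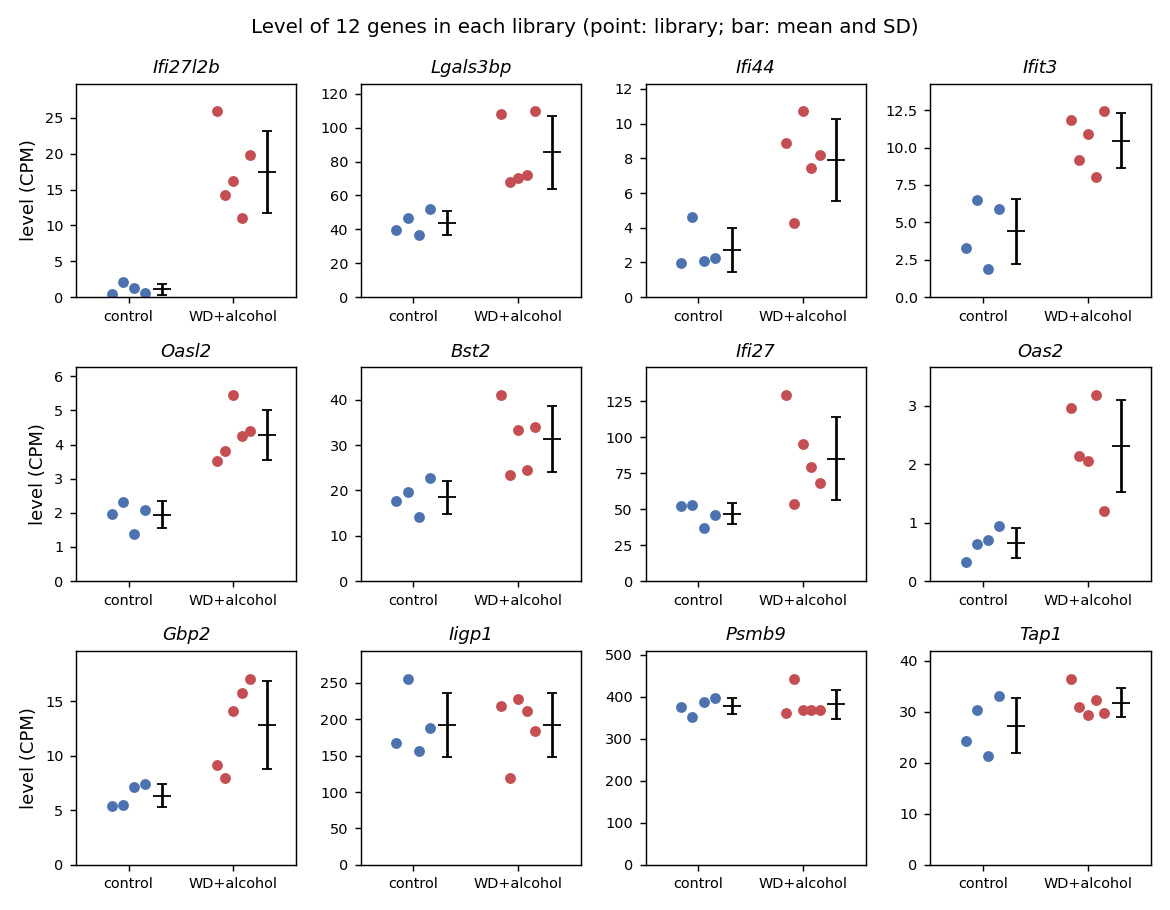
CPM of 12 genes in each library, with controls in blue and WD+alcohol in red; horizontal ticks with bars give the mean and SD of each group, and every axis starts at 0. Ifi27l2b is at most 2.10 CPM in controls and at least 11.1 CPM with WD+alcohol, whereas Iigp1, Psmb9 and Tap1 overlap throughout.

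Among the other type I antiviral targets, several canonical genes leaned the same way without passing. The ubiquitin-like modifier Isg15 stood at 12.7, 6.72, 11.6, 7.73 and 11.8 CPM against 4.78, 7.35, 5.91 and 6.06 CPM (log2 fold change 0.64, 95% interval 0.21 to 1.06; adjusted p = 0.134). Rsad2, the radical SAM enzyme viperin, stood at 13.5, 7.49, 13.7, 7.12 and 15.0 CPM against 4.78, 6.30, 7.47 and 5.68 CPM (0.76, interval 0.28 to 1.25; adjusted p = 0.111). In both genes mice 1, 3 and 5 were above all controls and mice 2 and 4 were near or among them. Rsad2 was called with DESeq2 (0.0392) and without WD+alcohol 4.

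Zbp1, a sensor of Z-form nucleic acid that can start necroptosis, stood at 4.31, 2.60, 4.32, 8.48 and 7.01 CPM against 0.824, 1.47, 1.22 and 4.74 CPM. Control 4 alone overlapped the WD+alcohol mice; the log2 fold change was 1.12 (interval 0.38 to 1.87; adjusted p = 0.135) and without control 4 the adjusted p was 0.0251. The ADP-ribosyltransferase Parp14 averaged 14.5 ± 2.76 CPM against 10.0 ± 2.99 CPM (adjusted p = 0.243), and Rtp4 16.8 ± 4.73 CPM against 11.7 ± 6.55 CPM (0.478). Xaf1 stood near the filter at 1.49 ± 0.724 CPM against 0.817 ± 0.427 CPM (0.573).

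The groups overlapped for the Mx genes, dynamin-like antiviral GTPases with defective alleles in common laboratory strains. Mx1 averaged 4.69 ± 1.55 CPM against 3.88 ± 0.689 CPM and Mx2 5.95 ± 1.56 CPM against 5.29 ± 0.176 CPM, with log2 fold changes of 0.19 and 0.11. Ifi35 had a log2 fold change of 0.10 (95% interval -0.17 to 0.36). At an unadjusted p under 0.05, 14 of the 23 tested type I antiviral targets differed, all 14 higher, against 7.41% of all tested genes that were higher at that level.

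The factors that carry the type I signal had no called change. Stat2 and Irf9, which belong to the type I complex, had log2 fold changes of -0.03 (95% interval -0.28 to 0.22) and 0.03 (-0.26 to 0.31). Irf7, the factor that amplifies interferon production, averaged 70.2 ± 6.24 CPM against 65.2 ± 9.11 CPM (0.11, -0.11 to 0.33). Usp18, a protease that removes Isg15 and restrains Ifnar2, stood at 10.8, 4.13, 4.50, 7.58 and 7.01 CPM against 5.77, 3.36, 4.00 and 3.03 CPM. Its groups overlapped (log2 fold change 0.59, 0.05 to 1.13; adjusted p = 0.345). It was the only 1 of these 4 genes with an unadjusted p under 0.05, and edgeR and DESeq2 called 0 of them. Over all tested genes 7.41% were higher at an unadjusted p under 0.05. The shares called higher by edgeR and DESeq2 were 1.5% and 2.51%.

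Of the 3 RNA-sensing genes, limma-trend, edgeR and DESeq2 called 0, and 0 had an unadjusted p under 0.05. Against the shares of all tested genes given above, such counts over 3 genes can show little. Ifih1, the RNA sensor MDA5, averaged 75.02 ± 10.8 CPM against 78.8 ± 8.23 CPM, and Trim25, a ubiquitin ligase of the RIG-I pathway, 63.9 ± 9.68 CPM against 60.8 ± 12.9 CPM. Dhx58, the regulatory sensor LGP2, averaged 4.80 ± 1.17 CPM against 3.36 ± 0.922 CPM with overlap (log2 fold change 0.41, interval -0.04 to 0.85; adjusted p = 0.457).

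No gamma-type GTPase passed the threshold with limma-trend (0 of 7), while edgeR and DESeq2 each called 1, Gbp2. Over all tested genes the shares called higher were 1.61% with limma-trend, 1.5% with edgeR and 2.51% with DESeq2. At an unadjusted p under 0.05 there were 2, Gbp2 and Gbp3, against 7.41% of all tested genes that were higher at that level. Against such shares, 0 of 7 does not show a lack of change. Gbp2, a guanylate-binding protein that attacks pathogen vacuoles, stood at 9.16, 7.95, 14.1, 15.8 and 17.0 CPM against 5.44, 5.46, 7.13 and 7.39 CPM. The groups did not overlap, mice 1 and 2 being close to the controls and mice 3, 4 and 5 well above them. The log2 fold change was 0.86 ± 0.21 (SE; adjusted p = 0.0533; 0.00505 with DESeq2 and 0.0492 with edgeR). Leaving out WD+alcohol 1 or WD+alcohol 2 also brought it past the threshold, and over the 20 alternatives its adjusted p ran from 0.00505 to 0.146.

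The other guanylate-binding proteins overlapped between groups. Gbp3 averaged 2.77 ± 0.903 CPM against 1.27 ± 0.740 CPM (adjusted p = 0.205) and Gbp7 13.9 ± 5.46 CPM against 10.5 ± 2.55 CPM (0.656). Among the 7 genes the SE of the log2 fold change, on log2(CPM + 1), was largest for the immunity-related GTPases Igtp and Ifi47. It was 0.34 and 0.30 for them, against 0.18 to 0.26 for the other 5. Igtp, a regulator that keeps these GTPases off host membranes, stood at 24.3, 12.2, 28.2, 14.8 and 25.4 CPM against 10.7, 15.8, 7.30 and 30.7 CPM. Its highest mouse was a control and its lowest was a control too. Ifi47 stood at 19.9, 10.2, 21.2, 21.2 and 20.02 CPM against 10.2, 21.6, 6.43 and 19.3 CPM, with the same mice low (WD+alcohol 2, control 1 and control 3) as for Igtp. The adjusted p-values of Igtp and Ifi47 were 0.642 and 0.639, and both share exon bases with another gene on the same strand.

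Iigp1, the effector GTPase of that family, was the most abundant of the 7 at 219, 119, 229, 212 and 184 CPM against 168, 255, 156 and 189 CPM. Both groups averaged 192 CPM with an SD of 44.3 CPM, and the log2 fold change was -0.01 (95% interval -0.40 to 0.39). Irgm1, another regulator, had one of 0.10 (-0.35 to 0.55).

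Of the 3 antigen-processing genes, limma-trend, edgeR and DESeq2 called 0, and 0 had an unadjusted p under 0.05. Over all tested genes the 3 tools called 1.5% to 2.51% higher, so 0 of 3 can show little. Psmb9, a catalytic subunit of the immunoproteasome, stood at 361, 442, 368, 369 and 368 CPM against 376, 351, 387 and 396 CPM. WD+alcohol 2 was the only library outside 351 to 396 CPM, and the log2 fold change was 0.01 with an interval of -0.16 to 0.18. The second subunit Psmb8 averaged 61.8 ± 6.23 CPM against 52.1 ± 10.0 CPM (0.26, -0.01 to 0.52), and Tap1, which moves peptides into the endoplasmic reticulum, 31.8 ± 2.83 CPM against 27.3 ± 5.40 CPM (0.23, -0.04 to 0.50).

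The chemokines Cxcl9 and Cxcl10 draw T cells through Cxcr3, and 0 of the 2 were called by any of the 3 tools. These tools called 1.5% to 2.51% of all tested genes higher, so 0 of 2 can show little. Cxcl9 stood at 42.6, 47.4, 53.3, 44.8 and 50.4 CPM against 39.2, 44.3, 38.4 and 40.4 CPM. Only control 2 overlapped the WD+alcohol mice (log2 fold change 0.23, interval 0.03 to 0.42; unadjusted p = 0.0241, adjusted p = 0.284). Cxcl10 averaged 10.7 ± 3.04 CPM against 10.2 ± 2.56 CPM.

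**Figure D3:**
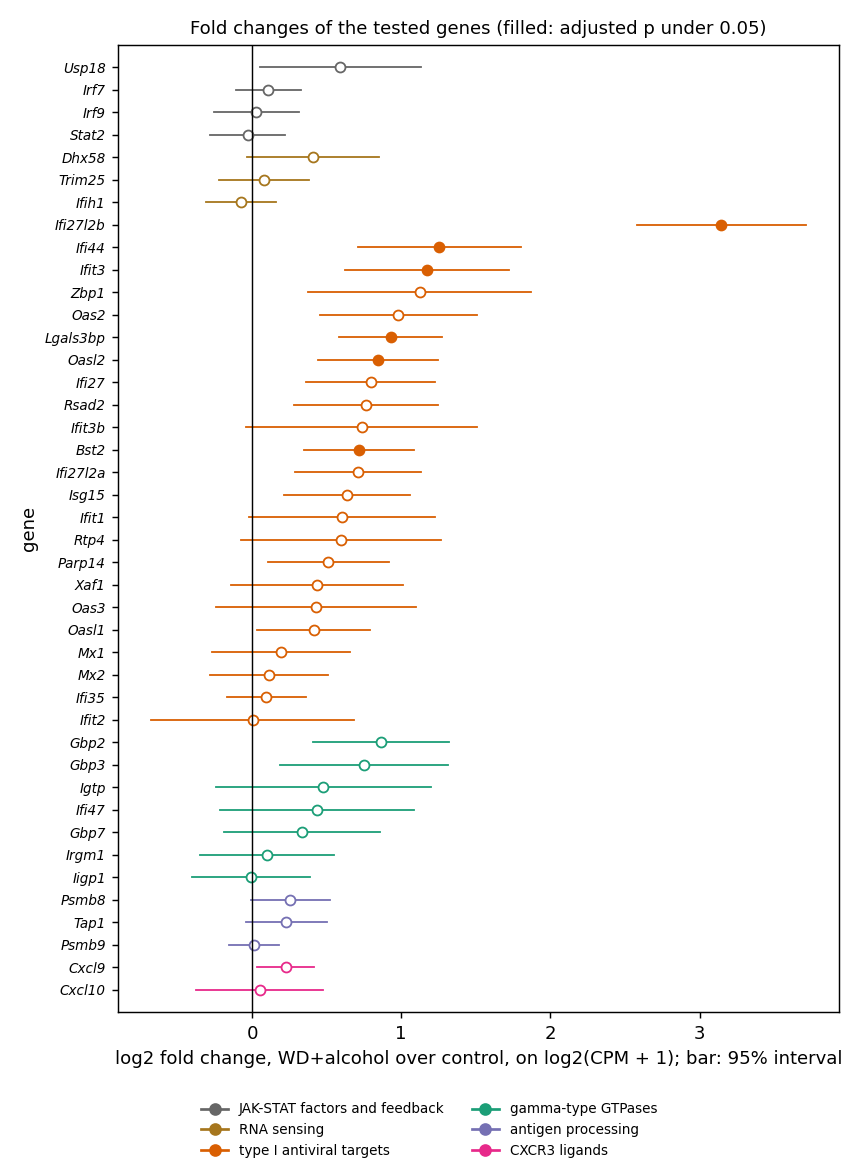
Points are log2 fold changes of WD+alcohol over control on the log2(CPM + 1) scale for the 42 tested genes, bars are 95% intervals and filled points passed an adjusted p of 0.05. Intervals of the antigen-processing genes all include 0 and reach 0.52 at most, whereas the 6 filled points all lie among the type I antiviral targets.

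The lists were set side by side as descriptions, since they were chosen with earlier results of these data known, and the difference between them was not tested. The median log2 fold change was 0.71 for the 23 tested type I antiviral targets, 0.44 for the 7 gamma-type GTPases and 0.23 for the 3 antigen-processing genes. It was 0.07 for the JAK-STAT factors and feedback genes, 0.08 for RNA sensing and 0.14 for the Cxcr3 ligands. Averaged over the genes of a list, log2(CPM + 1) minus the control mean was 0.94, 0.34, 0.84, 0.73 and 0.90 in WD+alcohol 1 to 5 for the type I antiviral targets and -0.13, 0.21, -0.18 and 0.09 in controls 1 to 4. All 5 WD+alcohol mice were above all controls. For the gamma-type GTPases it was 0.54, -0.19, 0.75, 0.44 and 0.57 against -0.12, 0.30, -0.42 and 0.24. There WD+alcohol 2 lay below 3 of the 4 controls.

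Single mice weighed on these averages. Among the 42 tested genes WD+alcohol 2 was the lowest of its group for 24 and the highest for 1, and among the gamma-type GTPases it was the lowest for 7 of 7. Control 3 was the lowest control for 19 of the 42 and control 2 the highest for 19. The difference between group averages was 0.75 for the type I antiviral targets and 0.69 to 0.85 when any 1 library was left out. For the gamma-type GTPases it was 0.42, and 0.28 without control 3 or 0.58 without WD+alcohol 2.

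Markers of macrophages moved with the group. Of 10 Kupffer cell markers 7 rose and 0 fell, against 1.61% and 0.678% of all tested genes. The sum of the 10 was 370 to 667 CPM with WD+alcohol and 91.9 to 195 CPM in controls. The resident-cell markers Timd4 and Cd163 were not among the 7 and had negative log2 fold changes. Of 9 monocyte and macrophage markers 4 rose, with sums of 361 to 539 CPM against 188 to 237 CPM. Hepatocyte markers went the other way, with 3 of 7 lower and sums of 26380 to 40570 CPM against 45060 to 65410 CPM. Their part in the interferon gene results was not tested. Averaged as the lists above, the Kupffer cell markers stood at 1.43, 0.85, 0.95, 0.999 and 1.73 in WD+alcohol 1 to 5 and at 0.04, 0.16, -0.54 and 0.34 in controls 1 to 4. The 6 markers of sinusoidal endothelium stood at 0.50, 0.20, 0.55, 0.45 and 0.54 against -0.21, 0.31, -0.49 and 0.38. WD+alcohol 2 and control 3 were the lowest of their groups in these marker lists, the type I antiviral targets and the gamma-type GTPases. The highest were not the same mice in all 4. Of the other marker lists only the stellate cell list had both mice lowest (-0.03 and -0.14). In WD+alcohol 1 to 5 the monocyte and macrophage markers stood at 0.71, 0.76, 0.51, 0.66 and 0.965. Neutrophil markers stood at 0.25, 1.34, 0.79, 1.05 and 1.29 there, and antigen-processing genes at 0.24, 0.215, 0.03, 0.18 and 0.16.

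No marker of T, NK, B or plasma cells was called. Beside the counts that follow, 1.61% of all tested genes were called higher and 7.41% were higher at an unadjusted p under 0.05. With edgeR and DESeq2 1.5% and 2.51% were called higher. Of 10 T and NK cell markers 3 reached 1 CPM on average, and edgeR and DESeq2 called 0. Of these 3, 1 was higher at an unadjusted p under 0.05, Nkg7 (1.95 CPM against 0.379 CPM). The sums of the 10 were 23.3 to 33.6 CPM against 21.4 to 29.2 CPM, mostly from Gzmb (16.97 CPM against 18.2 CPM on average). Cd3e averaged 0.556 CPM against 0.179 CPM, Cd3g 0.907 CPM against 0.329 CPM, Cd4 0.454 CPM against 0.546 CPM and Ncr1 0.113 CPM against 0.0947 CPM. Cd3d, Gzma and Klrb1c also averaged higher with WD+alcohol. Apart from Gzmb and Nkg7, the genes named here were below the filter and not tested. Of 5 markers of plasmacytoid dendritic cells, the professional makers of type I interferon, 0 of 2 tested were called by any tool. Siglech was below the filter and not tested, at 0.972 CPM against 0.241 CPM on average. Every WD+alcohol mouse was above every control for it (lowest 0.455 CPM, highest control 0.420 CPM), at levels of a few reads. For neutrophils 0 of 3 tested markers were called (2 at an unadjusted p under 0.05, 1 with DESeq2), with sums of 20.5 to 42.2 CPM against 9.88 to 22.9 CPM. For B and plasma cells 0 of 3 tested markers were called (0 at an unadjusted p under 0.05, 0 with edgeR or DESeq2), with sums of 214 to 263 CPM against 205 to 264 CPM, mostly from Igkc (199 CPM against 211 CPM), while Cd79a had 0 reads. For sinusoidal endothelium 0 of 6 were called (3 at an unadjusted p under 0.05, 0 with edgeR or DESeq2), and for stellate cells 1 of 5 rose, Dcn.

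**Figure D4:**
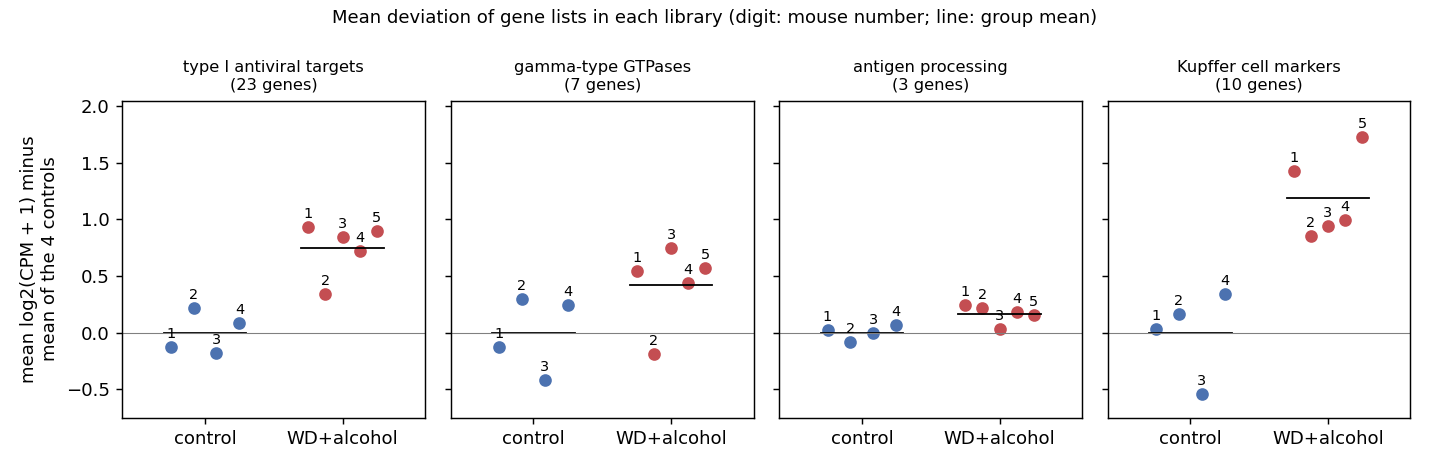
Each point is 1 mouse (digit: its number), plotted as the mean of log2(CPM + 1) over a list minus the mean of the 4 controls; black lines are group means. The type I antiviral targets and the Kupffer cell markers separate the groups, and the gamma-type GTPases do not because of WD+alcohol 2. The antigen-processing genes span 0.03 to 0.24 with WD+alcohol and -0.08 to 0.06 in controls, and overlap because of WD+alcohol 3.

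Interferon transcripts themselves were not seen. All 10 ligand genes looked up (Ifnb1, Ifng, 4 Ifna genes, Ifne, Ifnk, Ifnl2 and Ifnl3) had 0 reads in every library, which allows up to 0.455 to 0.809 CPM in a library. Of 11 tested receptor and kinase genes 0 were called by limma-trend, edgeR or DESeq2, against 1.61%, 1.5% and 2.51% of all tested genes called higher. At an unadjusted p under 0.05, 3 were higher and 0 lower, against 7.41% of all tested genes that were higher. Ifnar1 averaged 10.9 ± 0.604 CPM against 10.1 ± 2.46 CPM and Ifngr1 42.8 ± 5.08 CPM against 35.1 ± 2.13 CPM (adjusted p = 0.229).

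Among 13 tested nucleic acid sensors and IRFs, 1 rose and 0 fell, against 1.61% and 0.678% of all tested genes. At an unadjusted p under 0.05, 2 were higher, against 7.41% of all tested genes. The gene that rose was Tlr7, the endosomal sensor of single-stranded RNA, at 5.39, 2.60, 3.003, 5.00 and 4.00 CPM against 0.659, 1.05, 1.22 and 1.71 CPM, without overlap (log2 fold change 1.20 ± 0.23, SE; adjusted p = 0.0153). The other was Cgas, the cytosolic DNA sensor, at 4.17 ± 0.537 CPM against 2.17 ± 0.397 CPM, also without overlap (0.71 ± 0.18, SE; adjusted p = 0.0583). Irf1, a main factor downstream of interferon gamma, averaged 113 ± 8.77 CPM against 117 ± 14.7 CPM (-0.04, 95% interval -0.24 to 0.15).

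A further list of 58 genes, named type I targets although some also answer interferon gamma, lay outside the 44 genes. It gave 8 higher and 0 lower of 52 tested, against 1.61% and 0.678% of all tested genes. The median log2 fold change was 0.27. The 4 with the smallest p were Ifi213, Ifi204, Ifi30 and Ifitm2. Ifi204, a DNA-binding protein of the p200 family, averaged 9.29 ± 2.26 CPM against 3.66 ± 0.812 CPM, and its relative Ifi213 3.68 ± 0.892 CPM against 0.711 ± 0.368 CPM, a control level under the 1 CPM filter. Ifi30, a lysosomal thiol reductase known as a target of interferon gamma and made constitutively by antigen-presenting cells, averaged 93.5 ± 11.9 CPM against 65.9 ± 4.40 CPM, and the membrane protein Ifitm2 86.0 ± 8.86 CPM against 62.0 ± 5.20 CPM. Ifi213 thus passed that filter through its WD+alcohol level. Every WD+alcohol mouse was above every control for all 4, which were picked by their small p. The same held for 12 of the 52 tested, against 3.34% of all tested genes.

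Further gamma-type GTPases had 0 called of 7 tested (2 at an unadjusted p under 0.05, 0 with edgeR or DESeq2) and a median of 0.29. For this and the next list, 1.61% of all tested genes were called higher and 7.41% were higher at an unadjusted p under 0.05. With edgeR and DESeq2 1.5% and 2.51% were called higher. Further class I antigen-processing genes had 0 called of 18 (3 at an unadjusted p under 0.05, of which 1 lower, 0 with edgeR and 1 with DESeq2) and a median of 0.17. Those 3 were the heavy chain H2-D1 (543 ± 57.1 CPM against 394 ± 79.7 CPM, adjusted p = 0.0604), H2-T22 (36.9 ± 5.14 CPM against 26.3 ± 5.96 CPM, 0.132) and, lower, the chaperone Calr (578 ± 27.3 CPM against 674 ± 69.1 CPM, 0.258). Class I heavy chains are closely related in sequence, so reads could be split between them. The class I light chain B2m averaged 3231 ± 259 CPM against 2833 ± 635 CPM, the heavy chain H2-K1 621 ± 57.8 CPM against 635 ± 143 CPM, and the class I transactivator Nlrc5 9.37 ± 2.55 CPM against 7.85 ± 1.89 CPM. All 3 overlapped between the groups, with adjusted p-values of 0.608, 0.989 and 0.746.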

How the data were processed

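Liver RNA of 9 mice (5 WD+alcohol, 4 control) was extracted with Trizol and made into Collibri 3′ mRNA libraries, per the labels' protocols. The submitters' processing notes name build GRCm39 (mm39) and, as tools, edgeR 3.28.1 under R 3.6.3, HTSeq 0.11.0, STAR, cutadapt 1.18 and Trim Galore 0.6.0. Strand and multimapping settings are not given in the sources used here. The deposited values are a signal, CPM scaled by TMM by the authors. All positive values (100%, relative tolerance 1e-06) were whole multiples of the smallest in their column, which gave the recovered reads. Groups come from titles and columns from library names. Each library was taken as 1 mouse, and the labels name no batch. All 36 pairs of libraries differed beyond counting noise (chi-square per degree of freedom at least 5.88).

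The comparison was fitted on the whole table with limma-trend (limma 3.58.1, R 4.3.3) on log2(CPM + 1), on the 14759 genes averaging 1 CPM or more, two-sided, with Benjamini-Hochberg adjustment over all of them and a threshold of 0.05. Alternatives were pseudocounts of 0.25 and 5, no filter, a minimum mean of 5 CPM, rescaling to one total, median-of-ratios scaling, TMM without the most abundant 10% of genes, robust fitting, array weights, a replicate block, single libraries left out, and, on recovered reads, DESeq2 1.42.0 and the quasi-likelihood test of edgeR 4.0.16. In the report the alternatives of a single gene are counted without the block, whereas the totals over all members include it. The members, lists and settings were chosen with earlier results of these data known. All members were described; of the other pathway lists the called genes were named (up to 4 per list) plus 9 fixed genes, of which 1 is not reported here. Cd3e, Cd4, Ncr1, Nkg7, Siglech, Cd79a, Igkc, Dcn, Cgas, H2-D1, H2-T22 and Calr were named after their values were seen. So were the single Kupffer cell markers, Gzmb, Cd3d, Cd3g, Gzma and Klrb1c. On simulated counts (14576 genes run) the fit recovered 29.3% of genes changed 1.5-fold, 72.3% changed 2-fold and 86.7% changed 4-fold, with 8 false calls among 129. Promoters are from RefSeq (GRCm38.p6); their coordinates are of that build, and none are given in the authors' build. Figures used Python 3.11.15 and matplotlib 3.10.9.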

Additional observations from a re-analysis of the deposited data

Results flagged for a closer look

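Of 84 sets of member values (42 genes in each group), 6 held a library whose gap to its nearest neighbour took up most of the group's range on the log2(CPM + 1) scale, where chance flags about 1 in 20. In 4 of them it was WD+alcohol 2. It was low for Ifi47 (10.2 CPM, gap 0.914 of the range), Ifi27l2a (8.40 CPM, 0.730) and Ifit3b (0.458 CPM, 0.796), and high for Psmb9 (442 CPM, 0.896). Control 2 was high for Ifi44 (4.62 CPM, 0.851) and control 3 low for Irgm1 (3.13 CPM, 0.885).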

How the results depend on the processing

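The numbers of called genes were the least stable values, since several lay near the threshold. Of 6 members called higher (all 6 type I), 3 and 3 remained in number with no filter, and DESeq2 called 11 and 10. Leaving out 1 library gave 2 to 9 members and 2 to 8 type I members. The gamma-type GTPase called was 1 (Gbp2) with all libraries rescaled to one total, robust limma-trend, array weights, edgeR and DESeq2, and 0 to 1 when 1 library was left out. Antigen-processing calls and calls lower were 0 in all alternatives. The median log2 fold change of 0.44 ran from 0.36 (without control 3) to 0.55 (without WD+alcohol 2) over the libraries left out.

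Replicate numbers did not pair the mice: deviations of same-numbered mice correlated at -0.00753, -0.311, -0.213 and -0.0148, and no WD+alcohol mouse correlated best with its own number. With the replicate number as a block 1 member and 1 type I member were called (Ifi27l2b), and WD+alcohol 5, which has no partner, no longer counted.

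Of 871 values of single members under alternatives, here with the replicate block included, 785 kept direction and side of the threshold. Of the rest, 33 (5 members) lost a call, 22 (6 members) gained one and 31 (9 members) changed sign. Lgals3bp was among the 5 only through the block. None of the 9 members that changed sign was called. The log2 fold change of Ifit2 turned to -0.0105 with a pseudocount of 0.25, to -0.00070 with TMM without the most abundant genes, to -0.0051 with edgeR and to -0.20 with the block. Iigp1 turned to 0.0477 with rescaling to one total, 0.0665 with array weights, 0.00041 with the block, 0.00063 with edgeR and 0.0014 with DESeq2. Stat2 turned to 0.0233 with rescaling to one total, Psmb9 to -0.0129 with array weights and Cxcl10 to -0.0013 with the block. Over single libraries left out, values ran from -0.0783 to 0.0637 for Stat2, -0.12 to 0.14 for Irf9, -0.20 to 0.20 for Ifit2, -0.0088 to 0.16 for Ifi35, -0.0244 to 0.20 for Trim25, -0.0513 to 0.23 for Irgm1, -0.0969 to 0.16 for Iigp1, -0.0415 to 0.0359 for Psmb9 and -0.0791 to 0.20 for Cxcl10. The cause was not tested. Of the tested members 11 averaged under 5 CPM, where counting error is large.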
